A study of Mus musculus with 24 samples.

Results

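Neutrophil transcripts in the doxorubicin-treated mouse heart are described here through 10 genes chosen by symbol for their high and fairly restricted expression in neutrophils: S100a8, S100a9, Lcn2, Ngp, Camp, Retnlg, Chil3, Csf3r, Cxcr2 and Il1r2. Of these 10, 8 were measured in at least 1 of the tables, which together hold 10709 genes. The table of 16 h holds 7 of them among 10393 genes (S100a8, S100a9, Lcn2, Retnlg, Csf3r, Cxcr2 and Il1r2), the table of 72 h holds 5 among 7723 (S100a8, S100a9, Lcn2, Retnlg and Chil3), and 4 are in both. Ngp and Camp are not analysed here. All genes of the set that a table holds passed the filter on low counts, but the authors had already filtered each table, by an unstated criterion, so a gene measured at 1 time alone says nothing about its level at the other.

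Poly(A) RNA of whole hearts from WT mice was sequenced 16 h or 72 h after treatment. At 16 h the groups were DOXH (doxorubicin at 25 mg/kg with hesperitin at 10 mg/kg per day), DOX (doxorubicin alone at the same dose), H (hesperitin alone at the same dose) and V (vehicle). At 72 h DOX and V were analysed. Each of these 6 groups had 3 libraries, 18 in all, and the labels give no strain, sex or age and assign 1 batch to every sample. Doxorubicin is an anthracycline used against cancer whose use is limited by harm to the heart, and hesperitin (hesperetin) is a flavanone of citrus fruit. Depth was 9255651 to 11074450 counts per library in DOXH, DOX and V at 16 h, 17664060 to 19869050 in H, and 16607805 to 20587578 at 72 h. The labels do not state that the libraries of a group came from separate animals. Each p-value thus refers to the spread among the samples at hand, which may be technical in part. Below, a heart stands for 1 library.

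Neutrophils are short-lived white blood cells that are made in the bone marrow, carry preformed granules, and leave the blood within hours for sites of injury. Growth and release from the marrow depend on granulocyte colony-stimulating factor, movement towards injury depends on chemokines read by CXCR2, and the cytosol of a mature cell is filled with the calcium-binding proteins S100A8 and S100A9. In bulk heart RNA, more neutrophils in the tissue or its vessels and more of these transcripts per cell cannot be told apart. S100a8, S100a9 and Lcn2 are also transcribed by other inflamed or stressed cells, and Csf3r and Il1r2 by other myeloid cells.

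Transcription of granule and S100 genes in myeloid cells is known to use factors of the C/EBP family and PU.1. The promoters of the 3 genes with the highest mean depth-scaled counts (CPM, counts scaled to library size) among the S100 and granule genes at 16 h are therefore shown. Each is given as 300 bases from RefSeq (GRCm38.p6) that end just downstream of the annotated start. Retnlg was not classed with the S100 and granule genes here, though its mean was above that of Lcn2 (9.94 against 7.52 CPM). Capitals mark matches to TTNNGNAA (C/EBP; TTNCNNAA on the other strand) and to GAGGAA (PU.1; TTCCTC on the other strand). S100a9 is at chr3:90695672-90695971 on the minus strand, S100a8 at chr3:90668821-90669120 on the plus strand and Lcn2 at chr2:32387690-32387989 on the minus strand.
S100a9: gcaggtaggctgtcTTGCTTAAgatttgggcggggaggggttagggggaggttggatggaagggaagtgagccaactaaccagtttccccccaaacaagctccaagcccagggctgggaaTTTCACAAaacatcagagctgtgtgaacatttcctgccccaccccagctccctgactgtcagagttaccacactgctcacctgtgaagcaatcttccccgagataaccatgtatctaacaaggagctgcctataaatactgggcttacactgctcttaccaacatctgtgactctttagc
S100a8: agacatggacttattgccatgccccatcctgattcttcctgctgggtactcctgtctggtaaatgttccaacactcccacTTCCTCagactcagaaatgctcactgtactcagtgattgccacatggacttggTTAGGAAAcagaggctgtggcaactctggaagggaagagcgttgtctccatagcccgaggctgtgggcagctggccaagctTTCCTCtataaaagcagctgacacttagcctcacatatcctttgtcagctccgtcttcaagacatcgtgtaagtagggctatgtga
Lcn2: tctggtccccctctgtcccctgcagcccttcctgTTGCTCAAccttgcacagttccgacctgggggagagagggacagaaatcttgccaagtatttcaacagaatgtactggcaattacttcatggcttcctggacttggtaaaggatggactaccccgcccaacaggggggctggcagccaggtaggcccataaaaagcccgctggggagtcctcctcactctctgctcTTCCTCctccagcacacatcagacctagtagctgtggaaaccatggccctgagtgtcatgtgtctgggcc
The S100a9 promoter held 2 matches to the C/EBP letters and 0 to the PU.1 letters, S100a8 held 1 and 2, and Lcn2 held 1 and 1. All 10 genes of the set were matched in the promoter table: 6 had the C/EBP letters, which 40.7% of all 27025 promoters also held, and 4 had the PU.1 letters, which 28.3% held. A match is a run of letters, not a measured binding site, and a window without one says nothing about the factor.

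S100a8 (ENSMUSG00000056054) and S100a9 (ENSMUSG00000056071) encode the subunits of calprotectin, a protein that binds calcium and transition metals and acts as an alarm signal outside the cell. In the GENCODE annotation of GRCm38 they lie on chromosome 3 in opposite orientation, S100a8 from 90668978 to 90670035 and S100a9 from 90692632 to 90695721, with 22596 bases between them. S100a9 read 104, 113 and 61.4 CPM in the 3 DOX hearts at 16 h, against 12.5, 8.25 and 24.9 CPM in the V hearts. S100a8 read 77.7, 74.9 and 39.8 CPM in DOX, against 10.9, 4.81 and 18.3 CPM in V. Every DOX heart was above every V heart for both genes, with DOX replicate 3 the lowest of its group and V replicate 3 the highest of its own. The difference was 2.62 ± 1.04 on the log2 scale for S100a9 (SE; edgeR adjusted p = 0.0770) and 2.51 ± 1.01 for S100a8 (edgeR adjusted p = 0.0801), 6.13-fold and 5.70-fold, and neither passed the threshold of 0.05.

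Lcn2 (ENSMUSG00000026822, chromosome 2 from 32384633 to 32388252) encodes lipocalin-2, a protein of the secondary granules that withholds iron from bacteria. It read 21.3, 14.8 and 8.54 CPM in DOX hearts at 16 h, against 2.70, 2.09 and 5.13 CPM in V hearts. The groups did not overlap, and Lcn2 rose by 2.18 ± 0.58 on the log2 scale, or 4.54-fold (edgeR adjusted p = 0.0166). It was the 1 gene of 7 that passed, where 15.6% of all genes tested were higher in DOX and 32.3% were called in either direction. The call was lost without DOX replicate 1 (1.83, edgeR adjusted p = 0.0578), without V replicate 1 (2.06, edgeR adjusted p = 0.0600) and without V replicate 2 (1.93, edgeR adjusted p = 0.0589).

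Retnlg (ENSMUSG00000022651, chromosome 16 from 48872621 to 48874496), which encodes a secreted resistin-like protein of mouse neutrophils, read 20.9, 23.6 and 10.8 CPM in DOX hearts, against 3.28, 2.09 and 9.32 CPM in V hearts. The lowest DOX heart and the highest V heart lay close to each other. The difference of 1.93 ± 1.09 on the log2 scale did not pass (edgeR adjusted p = 0.190).

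The receptors were measured at 16 h alone. Cxcr2 (ENSMUSG00000026180, chromosome 1 from 74153989 to 74161246), the receptor that draws neutrophils towards CXC chemokines, read 13.9, 12.4 and 7.06 CPM in DOX hearts, against 2.41, 1.72 and 4.08 CPM in V hearts. Il1r2 (ENSMUSG00000026073, chromosome 1 from 40074079 to 40125231), a decoy receptor that binds interleukin-1 without signalling, read 8.39, 7.45 and 4.27 CPM in DOX, against 1.16, 0.181 and 2.30 CPM in V. Csf3r (ENSMUSG00000028859, chromosome 4 from 126024550 to 126044440), the receptor for granulocyte colony-stimulating factor, read 15.0, 17.2 and 13.4 CPM in DOX, against 4.92, 5.08 and 11.3 CPM in V. In each of the 3, the DOX hearts stood above the V hearts without overlap, and V replicate 3 was the highest V heart. The log2 differences were 2.03 ± 0.81 for Cxcr2 (edgeR adjusted p = 0.0732), 2.49 ± 0.99 for Il1r2 (edgeR adjusted p = 0.0727) and 1.11 ± 0.54 for Csf3r (edgeR adjusted p = 0.131).

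**Figure D1:**
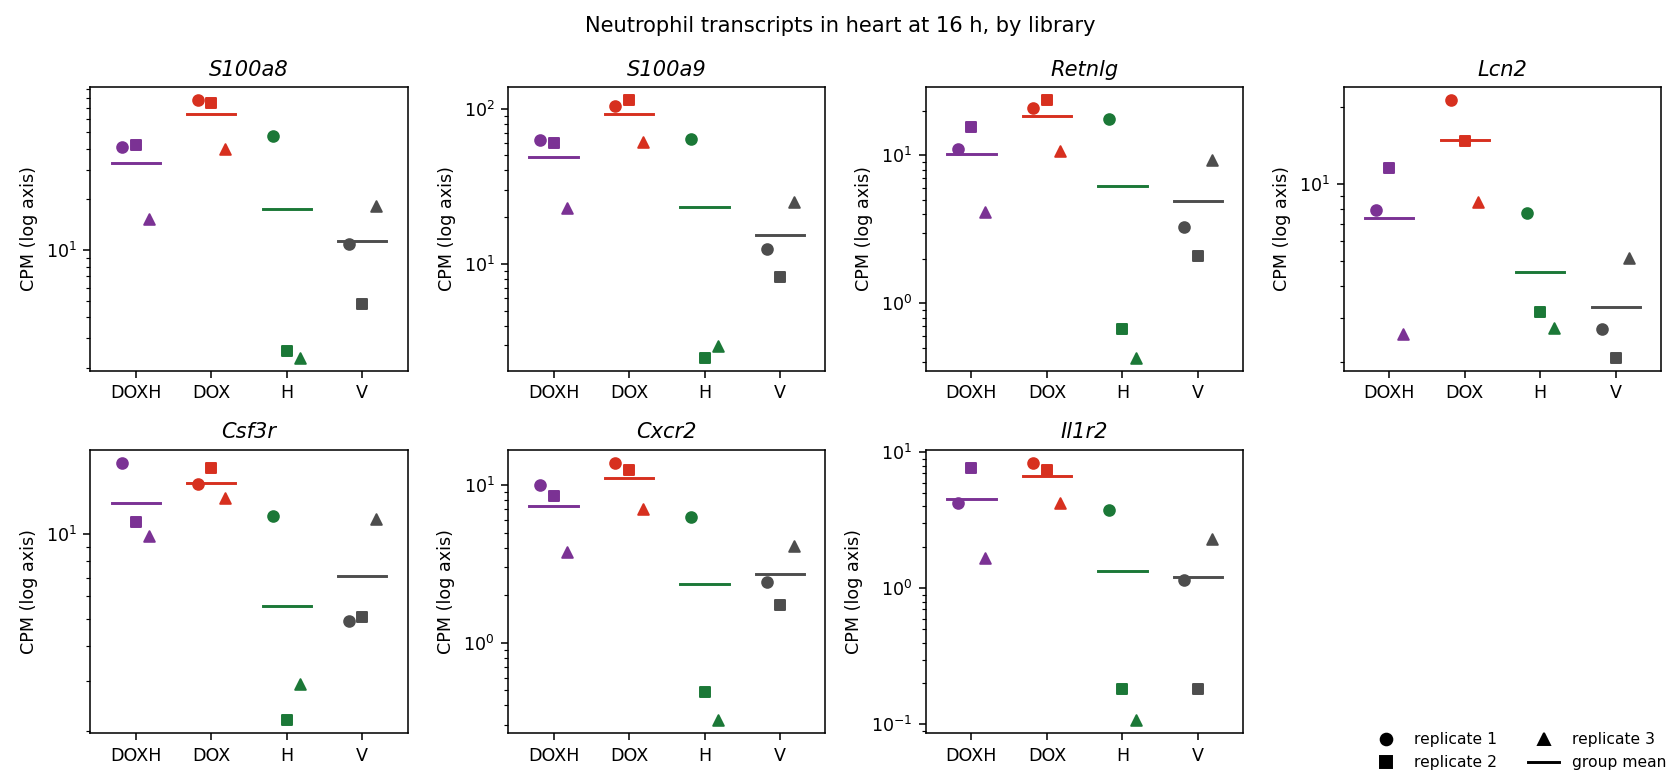
CPM of the 7 neutrophil transcripts measured at 16 h, 1 panel per gene on its own log axis, with 1 point per library and a bar at the mean of each group (DOXH, DOX, H, V; 3 libraries each). All 3 DOX hearts lie above all 3 V hearts in every panel, while H replicate 1 lies far above the other H hearts (S100a9 at 64.0 CPM) and DOXH replicate 3 lies below the other DOXH hearts (S100a9 at 23.0 CPM).

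All 7 genes were therefore higher in every DOX heart than in every V heart at 16 h, an arrangement that 28.4% of all genes tested also had. At an unadjusted p under 0.05, 5 of 7 were higher, against 45.4% of all genes in either direction. The median of the 7 log2 differences was 2.18, beside 0.02 over all genes. How many passed depended on the libraries that set the spread. The fit used all 12 libraries of 16 h, and the spread it shares among groups includes H replicate 1 and DOXH replicate 3. With DOX and V libraries alone, 7 of 7 passed, where 44.0% of all genes were called. There the edgeR adjusted p was 0.00388 for Cxcr2, 0.00787 for S100a9, 0.0123 for Il1r2, 0.0131 for S100a8, 0.0251 for Csf3r and 0.0417 for Retnlg. Leaving out just H replicate 1 and DOXH replicate 3, an alternative chosen after seeing the data, also gave 7 of 7, with 40.1% of all genes called. DESeq2 gave no adjusted p for S100a8 and called 2 of the other 6, Lcn2 and S100a9, and 33.4% of all genes.

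Of the 7 genes, S100a9 and S100a8 were the most abundant transcripts per length. In DOX hearts at 16 h the mean level per kilobase of the longest annotated transcript was 179 CPM/kb for S100a9, 129 for S100a8, 31.0 for Retnlg and 10.8 for Lcn2. The receptors had 4.72 CPM/kb for Il1r2, 4.37 for Csf3r and 3.65 for Cxcr2.

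Hesperitin alone at 16 h gave 1 heart with high levels and a pair with very low ones. S100a9 read 64.0, 2.48 and 2.94 CPM in H hearts, against 12.5, 8.25 and 24.9 CPM in V hearts. S100a8 read 47.9, 2.54 and 2.30 CPM in H, against 10.9, 4.81 and 18.3 CPM in V. Retnlg read 17.5, 0.666 and 0.428 CPM in H, against 3.28, 2.09 and 9.32 CPM in V. H replicate 1 was the highest library of H and V together for these 3 genes, and the other H hearts were the lowest.

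H replicate 1 was also the highest H heart in the other genes. Cxcr2 read 6.24, 0.484 and 0.321 CPM and Il1r2 read 3.75, 0.182 and 0.107 CPM in H replicates 1, 2 and 3. Csf3r read 11.6, 2.18 and 2.94 CPM and Lcn2 read 7.67, 3.15 and 2.73 CPM in the same libraries. For Lcn2 the pair of low H hearts lay within the range of the V hearts. H replicate 1 stood 20.8-fold above the lowest H heart at the median gene, with 2.81-fold for Lcn2 as the least and 40.9-fold for Retnlg as the most, where the same span had a median of 2.74 in DOXH, 1.96 in DOX and 3.02 in V. None of the 7 differed between H and V by edgeR, at log2 differences of -0.33 to 0.65 and adjusted p of 0.951 to 0.994. No gene of 10393 passed in this comparison, and 6.39% had an unadjusted p under 0.05, which 0 of the 7 had. Without H replicate 1 the sign turned for the genes that had been higher in H, with Retnlg at -3.13 and S100a9 at -2.47 on the log2 scale. No gene of the set separated the H hearts from the V hearts, where 8.04% of all genes were higher and 7.53% lower without overlap. Every H library was deeper than every other library of 16 h. In each comparison that includes H, depth and treatment therefore cannot be told apart.

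Some marker genes of myeloid cells were also higher in H replicate 1. The summed level of 7 further neutrophil genes was 72.2 CPM there and 32.5 to 34.3 CPM in the other H hearts, and that of 10 macrophage and monocyte genes was 336 CPM, against 257 to 266 CPM. The summed cardiomyocyte genes read 36647 CPM in H replicate 1, beside 42623 to 46159 CPM in the other H hearts. Erythroid and platelet markers did not set it apart, with an erythroid sum of 1992 CPM, against 1597 to 1951 CPM, and Pf4 at 7.12 CPM, against 7.38 to 7.55 CPM. The part of these differences in the result was not tested.

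DOXH against DOX compares doxorubicin hearts with and without hesperitin, and includes any effect that hesperitin has without the drug. Whether hesperitin changes the response to doxorubicin is the question of the interaction given below. In DOXH hearts S100a9 read 62.8, 60.4 and 23.0 CPM and S100a8 read 40.7, 42.1 and 15.4 CPM. Lcn2 read 7.94, 11.6 and 2.59 CPM, and Retnlg 11, 15.6 and 4.15 CPM. Cxcr2 read 9.95, 8.57 and 3.73 CPM, Il1r2 4.21, 7.71 and 1.66 CPM, and Csf3r 17.9, 11.03 and 9.86 CPM.

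DOXH replicate 3 was the lowest of its group in all 7 genes, and the DOXH hearts overlapped the DOX hearts in all 7, where 8.72% of all genes were lower in DOXH without overlap. Mean S100a9 was 48.8 ± 22.3 CPM in DOXH and 92.8 ± 27.7 CPM in DOX, and mean Lcn2 was 7.37 ± 4.51 CPM in DOXH and 14.9 ± 6.40 CPM in DOX (SD, n = 3 each). All 7 means were lower in DOXH, by log2 differences of -1.01 ± 0.53 for Lcn2 (edgeR adjusted p = 0.326), -0.97 ± 0.93 for S100a8 and -0.93 ± 0.96 for S100a9, down to -0.23 ± 0.52 for Csf3r, with a median of -0.84 beside -0.01 over all genes. None of the 7 passed edgeR's test, nor did any of 10393 genes. At an unadjusted p under 0.05 stood 0 of the 7 and 18.8% of all genes, and DESeq2, which called 379 genes, gave an adjusted p for just 3 of the 7 (Csf3r, Retnlg and S100a9) and called 0 of those 3. The standard errors of these 7 differences were 0.52 to 1.01.

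The DOXH means lay between those of DOX and those of both groups without doxorubicin in all 7 genes, while single hearts overlapped. Against V the 7 log2 differences were 0.88 to 1.93 with a median of 1.45, at edgeR adjusted p of 0.339 to 0.635, and against H they were 0.70 to 1.72 with a median of 1.07, at edgeR adjusted p of 0.191 to 0.698. Neither comparison called any of the 7, where 0 genes and 0.154% of genes were called. Against H, 1 of 7 had an unadjusted p under 0.05 (Csf3r, 24.6% of all genes), and against V 0 of 7 had one (16.8%). Without H replicate 1, DOXH was higher than H in 6 of the 7, where 1.85% of all genes passed. No gene of the set had DOXH hearts apart from V hearts (9.40% of genes were higher without overlap) or from H hearts (10.3%).

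The order of the group means at 16 h was DOX, DOXH, H, V for S100a8, S100a9, Lcn2, Retnlg and Il1r2, and DOX, DOXH, V, H for Csf3r and Cxcr2. Neighbours in that order overlapped in all 7 genes. The interaction, the change with doxorubicin under hesperitin minus that without it, ranged from -1.62 ± 1.37 for S100a8 to 0.10 ± 0.76 for Csf3r. By edgeR 0 of 7 passed (adjusted p 0.484 to 0.967), as did 0 of all genes, and 0 of the 7 had an unadjusted p under 0.05, which 11.8% of all genes had. Without H replicate 1 its sign turned for Cxcr2, Il1r2, Retnlg, S100a8 (1.24) and S100a9 (1.54), while Lcn2 stayed below 0 at -0.86. Csf3r kept its sign there (1.22), but turned without DOXH replicate 1 (-0.21), H replicate 2 (-0.27), H replicate 3 (-0.21) or V replicate 3 (-0.39).

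The position of a library in the set followed its position over all genes only in part. The first principal component of log2 CPM at 16 h, which carried 60.8% of the variance, placed DOXH replicate 3 at -17.7, apart from the other DOXH hearts at 8.28 and 35.1 and next to the V hearts, which lay at -20.7 to -18.0. H replicate 1 lay at -16.4 on it, with the other H hearts at -27.3 and -27.0 and far from DOX at 29.4 to 42.2. The cardiomyocyte sum was 42859 CPM in DOXH replicate 3, against 26049 to 27020 CPM in the other DOXH hearts. Whether these shifts take part in the neutrophil values was not tested.

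**Figure D2:**
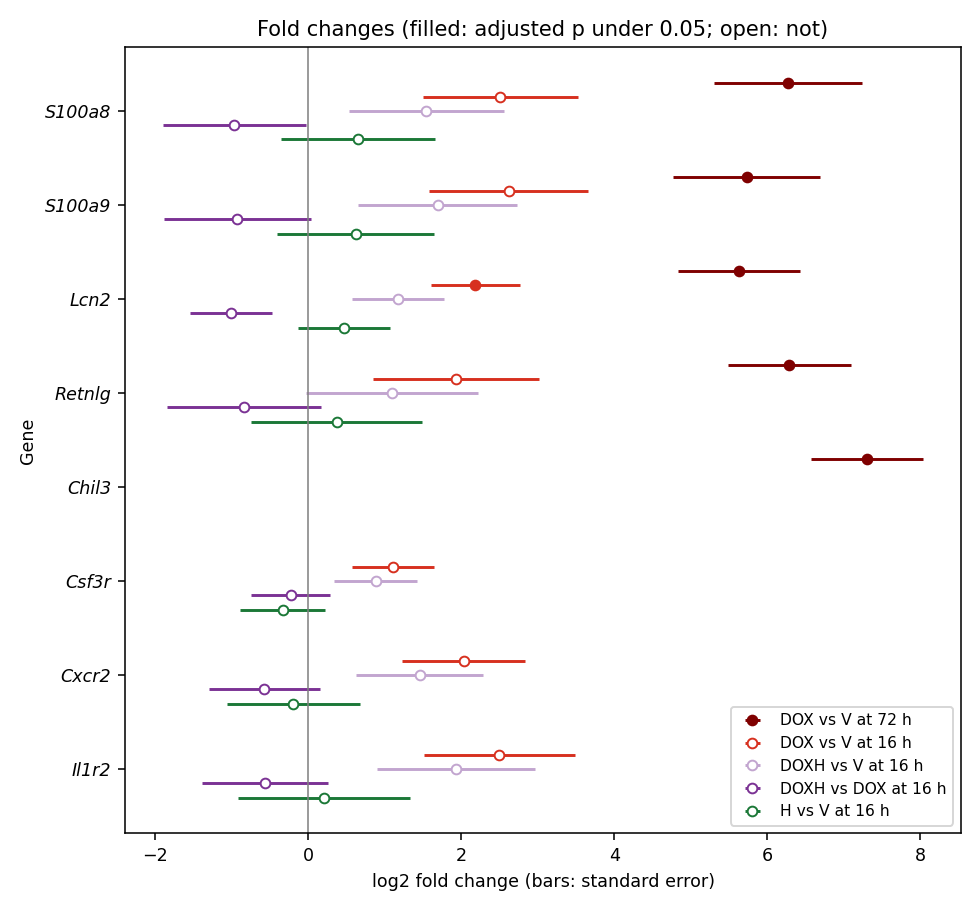
Log2 fold changes of each neutrophil transcript (points) with SE (bars) from edgeR in DOX against V at 72 h and 16 h and in DOXH against V, DOXH against DOX and H against V at 16 h, filled where the adjusted p is under 0.05. At 16 h the DOX against V differences are 1.11 to 2.62 with wide errors, those of DOXH against DOX are -1.01 to -0.23, and at 72 h those of DOX against V are 5.62 to 7.31.

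At 72 h all 5 measured transcripts rose strongly with doxorubicin. S100a9 read 44.0, 11.9 and 62.1 CPM in the DOX hearts (replicates 1 and 2 and a library whose number no label carries), against 1.11, 0.574 and 0.514 CPM in the V hearts. S100a8 read 34.3, 10.5 and 53.0 CPM in DOX, against 0.583, 0.255 and 0.400 CPM in V. The lowest DOX heart was far above the highest V heart for both genes. S100a9 rose by 5.73 ± 0.96 on the log2 scale, 53.1-fold (edgeR adjusted p = 0.00715), and S100a8 by 6.27 ± 0.97, 77.0-fold (edgeR adjusted p = 0.00471).

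Lcn2 was the most counted gene of the set at this time. It read 75.5, 21.5 and 94.8 CPM in DOX hearts, against 1.40, 1.02 and 1.43 CPM in V hearts. Retnlg read 16.6, 4.09 and 18.1 CPM in DOX, against 0.292, 0.128 and 0.0571 CPM in V. Lcn2 rose by 5.62 ± 0.80 on the log2 scale, 49.3-fold (edgeR adjusted p = 0.00368), and Retnlg by 6.29 ± 0.81, 78.2-fold (edgeR adjusted p = 0.000402).

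Chil3 (ENSMUSG00000040809, chromosome 3 from 106147554 to 106167564) encodes a secreted chitinase-like protein without enzyme activity, made in the mouse by maturing neutrophils and by alternatively activated macrophages. It read 10.4, 6.24 and 14.9 CPM in DOX hearts, against 0.117, 0.0638 and 0 CPM in V hearts. The V hearts together held 3 counts and the DOX hearts 647. Scaled by total counts alone, without the TMM factors behind the CPM and edgeR values, the ratio was 235. Its 95% interval of 80.2 to 1144 covers counting error alone. The edgeR estimate was 7.31 ± 0.73, or 158-fold (adjusted p = 7.51e-05). Its size depends on the scaling and on how the near-zero V counts are moderated. Chil3 has near-identical relatives such as Chil4, so its reads may have been shared among them in the authors' counting.

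**Figure D3:**
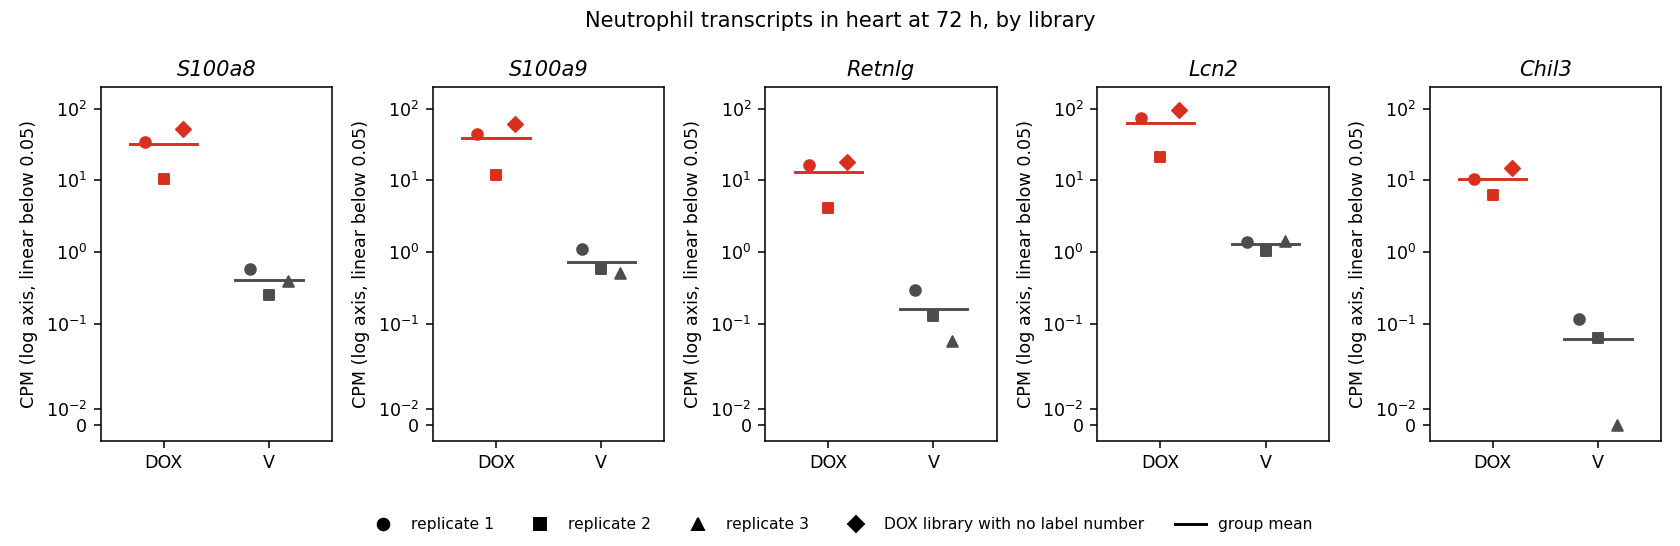
CPM of the 5 neutrophil transcripts measured at 72 h, 1 panel per gene on a log axis that is linear below 0.05, with 1 point per library and a bar at the mean of each group (DOX, V; 3 libraries each). DOX replicate 2 is the lowest DOX heart in every panel (Lcn2 at 21.5 CPM), yet lies above every V heart (Lcn2 at 1.43 CPM at most).

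By edgeR 5 of 5 were higher in DOX at 72 h, where 26.5% of all 7703 genes tested were and 53.7% changed in either direction. Without overlap 5 of 5 were higher, as 31.3% of all genes were. In the V libraries S100a8 held 10, 4 and 7 counts, S100a9 19, 9 and 9, Retnlg 5, 2 and 1, and Chil3 2, 1 and 0. These genes thus passed the filter on low counts through the DOX libraries, unlike Lcn2 (24, 16 and 25). Their direction was largely set in advance, so 5 of 5 is not independent support. The median of the 5 log2 differences was 6.27, beside 0.01 over all genes. DOX replicate 2 was the lowest DOX heart in all 5, at 0.224 to 0.495 of the mean of the other DOX libraries. Leaving it out, or any other library, left all 5 called. Markers of blood did not run together: the summed CPM of 5 erythroid genes was 20.6 to 33.0 in DOX hearts and 1436 to 3523 in V hearts, and all 5 fell, with a median log2 change of -6.56. The summed macrophage and monocyte genes read 333 to 416 CPM in DOX hearts and 226 to 295 CPM in V hearts, with 5 of 8 higher and 1 lower (Csf1r). The summed cardiomyocyte genes read 10902 to 14192 CPM in DOX hearts and 31773 to 38077 CPM in V hearts. The part of these shifts in the neutrophil values was not tested.

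The change with doxorubicin was compared between the times for the 4 genes in both tables, as the log2 difference at 72 h minus that at 16 h. It was higher at 72 h by 4.33 ± 1.31 for Retnlg (edgeR adjusted p = 0.0265) and by 3.42 ± 1.09 for Lcn2 (edgeR adjusted p = 0.0360), while S100a8 (3.72 ± 1.29, edgeR adjusted p = 0.0504) and S100a9 (3.08 ± 1.16, edgeR adjusted p = 0.0663) did not pass. These 2 of 4 stand beside 16.8% of all genes called higher and 35.6% called in either direction. Leaving out V replicate 3 of 16 h or any 1 V library of 72 h gave 0 of 4. Leaving out DOX replicate 2 of 72 h gave 4 of 4. The share of all genes called in these runs is not given here, so these counts cannot be set against it.

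Scaled together over the genes shared by both tables, S100a9 averaged 98.3 ± 29.3 CPM in DOX hearts and 15.8 ± 8.85 CPM in V hearts at 16 h, and 46.8 ± 30.3 CPM in DOX hearts and 0.865 ± 0.385 CPM in V hearts at 72 h (SD, n = 3 each). The mean of the DOX hearts was thus lower at 72 h, and the larger fold change there stands on much lower V hearts. S100a8 and Retnlg ran the same way, with V means of 11.7 ± 6.93 and 5.06 ± 3.98 CPM at 16 h and of 0.488 ± 0.194 and 0.188 ± 0.142 CPM at 72 h. For Lcn2 the DOX mean was higher at 72 h, at 76.2 ± 45.3 CPM, against 15.8 ± 6.70 CPM at 16 h, beside V means of 1.52 ± 0.268 CPM at 72 h and 3.42 ± 1.64 CPM at 16 h. Levels across times were not tested, since the table and the time cannot be told apart.

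The transcripts varied together from library to library. After the group means were taken away, log2 CPM of the 21 pairs of genes at 16 h had correlations of 0.668 to 0.991 with a median of 0.930 over 12 libraries, and the 10 pairs at 72 h had 0.682 to 0.979 with a median of 0.910 over 6. These values describe libraries that share depth and scaling, and carry no test. At 16 h they rest largely on the H libraries. There the highest level was 20.8-fold the lowest at the median gene, against 1.96 to 3.02 in the other groups. Correlations without H replicate 1 were not computed. S100a9 spanned 45.7-fold over the 12 libraries of 16 h and S100a8 33.7-fold, while the ratio of S100a8 to S100a9 within a library spanned 1.76-fold. The ratio of Cxcr2 to S100a9 spanned 2.14-fold and that of Retnlg 2.57-fold, where the levels themselves spanned 43.1-fold and 55.0-fold. The ratios of S100a8, Cxcr2 and Retnlg thus spanned far less than the levels, but they were not constant. Cxcr2 per S100a9 was 0.110 to 0.133 in DOX hearts and 0.164 to 0.209 in V hearts, and Retnlg per S100a9 was 0.175 to 0.208 in DOX hearts and 0.253 to 0.374 in V hearts, without overlap in either case and with no test.

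The ratios of Lcn2 and Csf3r varied more, with the highest values in the libraries with the fewest neutrophil transcripts. They spanned 11.3-fold and 6.90-fold at 16 h, where the levels of Lcn2 and Csf3r spanned 10.2-fold and 8.21-fold. For Lcn2 the ratio thus spanned more than the level. Lcn2 per S100a9 was 0.113 to 0.191 in DOXH hearts, 0.131 to 0.205 in DOX hearts, 0.120, 1.27 and 0.927 in H hearts, and 0.206 to 0.253 in V hearts. Csf3r per S100a9 was 0.183 to 0.428 in DOXH hearts, 0.145 to 0.218 in DOX hearts, 0.181, 0.878 and 1.00 in H hearts, and 0.392 to 0.615 in V hearts. The pair of H hearts with the least S100a9 thus had the highest ratios of both genes at 16 h. The ratio of Il1r2 spanned 5.81-fold on few counts in the low libraries.

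At 72 h Lcn2 stood above S100a9 in every library. Its ratio was 1.72, 1.81 and 1.53 in DOX hearts and 1.26, 1.78 and 2.78 in V hearts, so it was above 1 with and without doxorubicin. S100a8 per S100a9 was 0.779, 0.884 and 0.853 in DOX hearts and 0.526, 0.444 and 0.778 in V hearts at 72 h, on few counts in V.

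**Figure D4:**
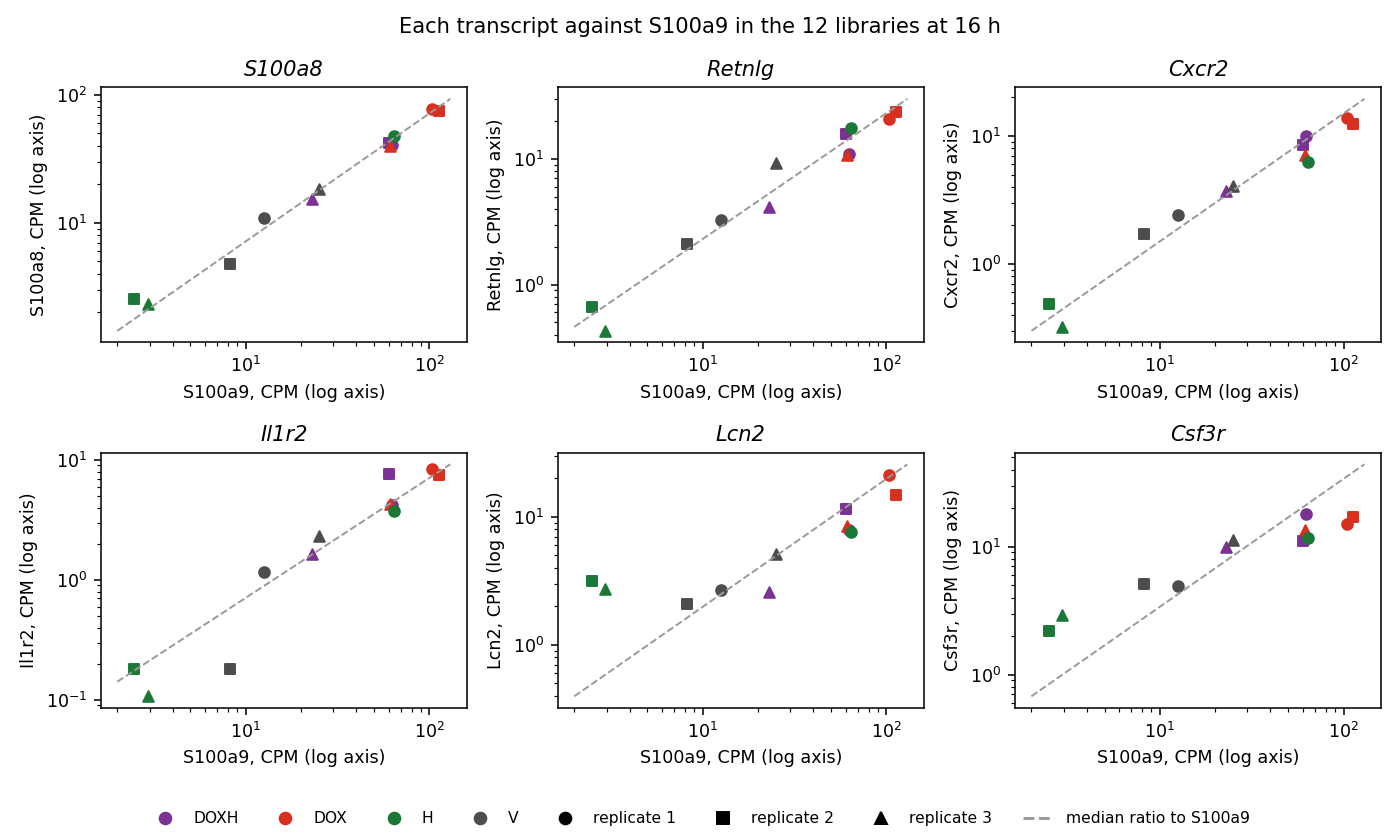
CPM of 6 neutrophil transcripts against S100a9 CPM in the 12 libraries of 16 h, on log axes, with 1 point per library coloured by group and a dashed line at the median ratio. The ratio of S100a8 to S100a9 spans 1.76-fold, while Lcn2 (ratios of 1.27 and 0.927) and Csf3r (0.878 and 1.00) stand above the line in the low H hearts.

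Further neutrophil genes, taken from a list of granule and surface genes, were thinly covered: 7 of 24 were measured at 16 h and 2 at 72 h. At 16 h 3 of 7 rose in DOX against V, beside 15.6% of all genes, and 0 fell, at a median log2 change of 1.37. They included Itgam, the alpha chain of the Mac-1 integrin (1.37 ± 0.29, edgeR adjusted p = 0.00673), and Mmp9, a gelatinase of granules (1.52 ± 0.50, edgeR adjusted p = 0.0382). Cxcr4, on the same list, went the other way without passing (-0.81 ± 0.32, edgeR adjusted p = 0.0679). At 72 h both measured genes rose, beside 26.5% of all genes: Anxa1, which encodes annexin A1 (1.32 ± 0.16, edgeR adjusted p = 0.000264), and Itgam (1.98 ± 0.36, edgeR adjusted p = 0.00280). Neither Anxa1 nor Itgam is particular to neutrophils. The summed level of the 7 genes measured at 16 h was 67.9 to 108 CPM in DOX hearts and 35.9 to 47.8 CPM in V hearts.

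**Figure D5:**
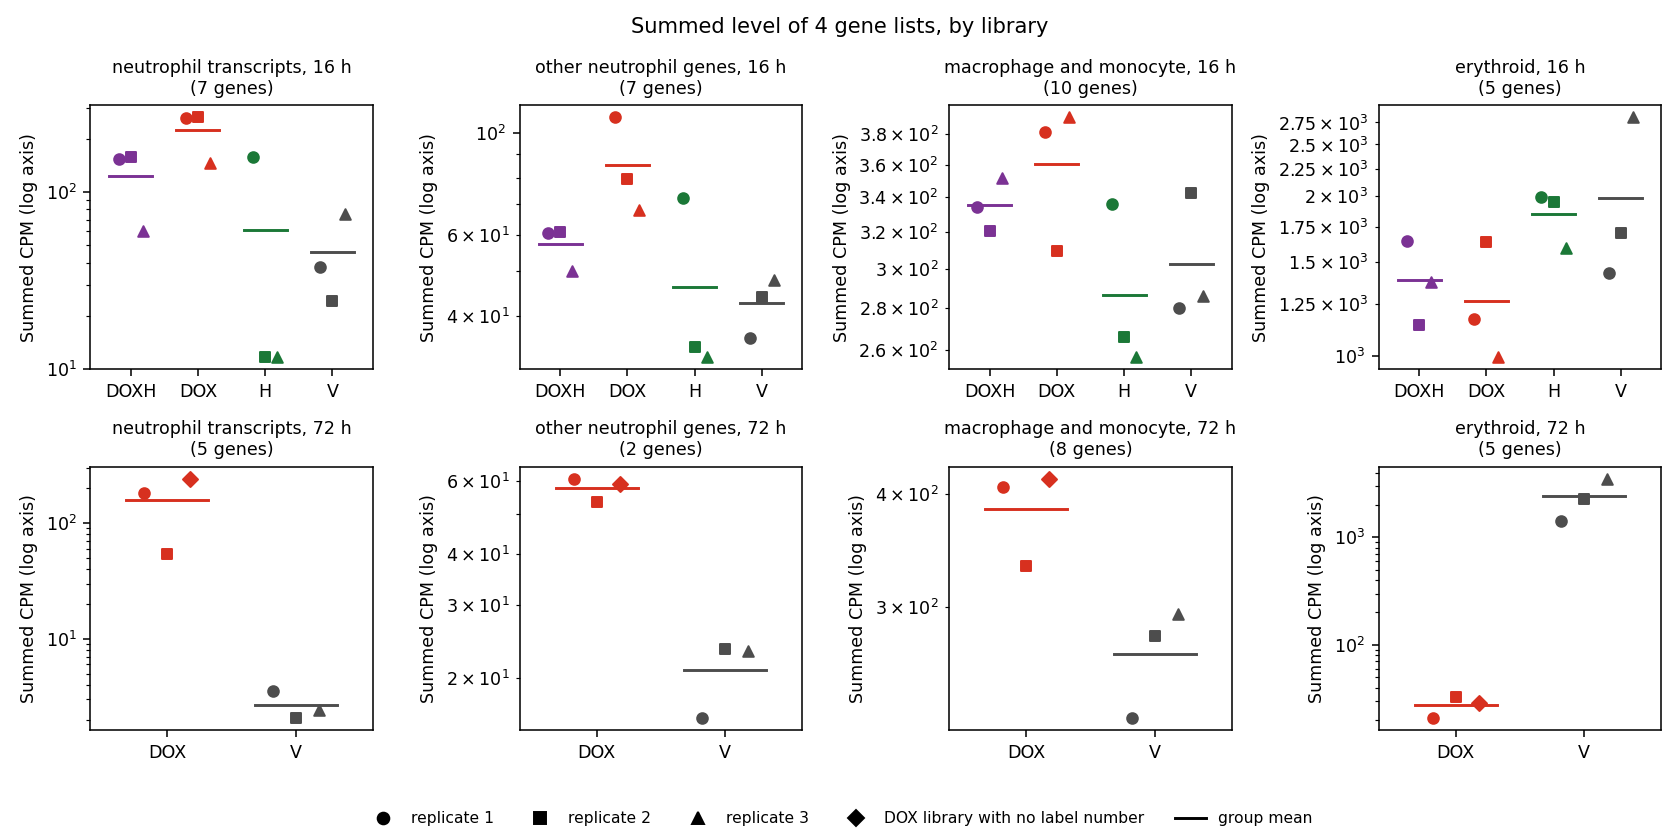
Summed CPM of marker genes of neutrophils (the 7 or 5 transcripts of the set, and the further list), of macrophages and monocytes and of erythroid cells, 1 point per library and a bar at each group's mean, each panel on its own log axis, with 16 h above and 72 h below. At 16 h the set sums to 145 to 264 CPM in DOX hearts and 24.2 to 75.4 CPM in V hearts. At 72 h it sums to 54.2 to 243 CPM in DOX hearts and 2.04 to 3.50 CPM in V hearts. Anxa1 and Itgam, which make up the further list at 72 h, are not particular to neutrophils.

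Signals that draw or sustain neutrophils were represented by few genes. At 16 h 2 of 3 measured genes of a list of 16 rose, beside 15.6% of all genes, and 0 fell (median 1.23): Il1b, the cytokine interleukin-1 beta (2.38 ± 0.63, edgeR adjusted p = 0.0165), and Il17ra, an interleukin-17 receptor chain (1.23 ± 0.43, edgeR adjusted p = 0.0461). At 72 h the 1 measured gene rose, beside 26.5% of all genes: Ccl2, a chemokine chiefly for monocytes (3.41 ± 0.59, edgeR adjusted p = 0.00153). Among genes of leukocyte adhesion to vessels, 2 of 7 rose at 16 h (median 0.21, with 15.6% of all genes higher), the junction gene F11r (0.44 ± 0.11, edgeR adjusted p = 0.0142) and Icam1, a ligand of Mac-1 on endothelium (0.71 ± 0.23, edgeR adjusted p = 0.0353). At 72 h 3 of 6 rose (median 0.32, with 26.5% of all genes higher), with Icam1 at 1.12 ± 0.19 (edgeR adjusted p = 0.00131), Pecam1 at 0.85 ± 0.17 and F11r at 0.29 ± 0.09.

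Of the NADPH oxidase, which makes superoxide in phagocytes, 1 of 5 genes rose at 16 h (median 0.28), a share near the 15.6% of all genes: the small GTPase gene Rac2 (0.90 ± 0.25, edgeR adjusted p = 0.0207), and 0 of 2 passed at 72 h, with Cybb at -0.28 ± 0.18 and Cyba at 0.24 ± 0.14. Of the interleukin-1 receptor system, 1 of 7 rose at 16 h (median 0.35), again near the 15.6% of all genes: the adaptor gene Myd88 (0.68 ± 0.19, edgeR adjusted p = 0.0198). At 72 h 2 of 3 rose, beside 26.5% of all genes: Il1r1, the signalling receptor (1.25 ± 0.14, edgeR adjusted p = 0.000132), and Myd88 (1.26 ± 0.17, edgeR adjusted p = 0.000328), and Irak1, a kinase of the pathway, fell (-0.22 ± 0.07, edgeR adjusted p = 0.0284).

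Of the factors whose letters were searched in the promoters, 0 of 4 passed at 16 h, where 15.6% of all genes were higher. Cebpa stood at 0.24 ± 0.26, Cebpb at 0.26 ± 0.35, Spi1, which encodes PU.1, at 0.25 ± 0.28 and Cebpd at 1.16 ± 0.52 (edgeR adjusted p = 0.107), with a median of 0.26. At 72 h 1 of 2 rose, beside 26.5% of all genes: Cebpd (2.13 ± 0.35, edgeR adjusted p = 0.00348). At 16 h the summed level of the 4 was 98.2 CPM in H replicate 1 and 33.2 to 34.2 CPM in the other H hearts, against 82.7 to 102 CPM in V hearts, so H replicate 1 was at the level of V. In DOXH against DOX, 0 genes of any of these lists passed edgeR's test, as did 0 of all 10393 genes. That count therefore says nothing particular to the lists.

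Among markers of other cells at 16 h, 1 of 10 macrophage and monocyte genes rose (Mrc1) and 1 fell (Csf1r), with sums of 309 to 391 CPM in DOX hearts and 280 to 342 CPM in V hearts. Of erythroid genes 2 of 5 fell (Hbb-bt and Alas2), with sums of 993 to 1637 CPM in DOX hearts and 1430 to 2811 CPM in V hearts. The platelet gene Pf4 stood at 0.47 ± 0.21 (edgeR adjusted p = 0.104) at 16 h and rose by 0.91 ± 0.29 at 72 h (edgeR adjusted p = 0.0283). Cardiomyocyte genes, the most highly counted of these lists in a heart, fell in 6 of 6 at 16 h and in 5 of 6 at 72 h. Endothelial genes fell in 2 of 5 at 16 h (Kdr and Tie1), and 2 rose (Pecam1 and Emcn) and 1 fell (Cdh5) at 72 h. Of 9 lymphocyte genes 0 were measured. Beside these counts, 15.6% of all genes were called higher in DOX at 16 h and 32.3% in either direction. At 72 h these shares were 26.5% and 53.7%.

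The genes whose levels ran most like the mean of the set over the 12 libraries of 16 h, by Pearson correlation of log2 CPM among 10386 genes, were Ccn2 (0.980), Mmp8 (0.979), Hdc (0.971), Cd300lf (0.969) and Mmp9 (0.961). Mmp8 encodes the neutrophil collagenase, Hdc the enzyme that makes histamine, Cd300lf an inhibitory receptor of myeloid cells, and Ccn2 a matricellular growth factor that many stressed tissues make. Ccn2 read 161, 200 and 99.3 CPM in DOXH hearts, 260, 230 and 249 CPM in DOX, 172, 48.1 and 41.3 CPM in H, and 82.7, 73.0 and 122 CPM in V. It thus shared the high value in H replicate 1 and the low value in DOXH replicate 3. At 72 h, over 6 libraries that fall into the treatment groups, the closest included Lipe (0.997), Capn2 (0.996), Vwa3a (0.996) and Pdk4 (0.995). Any gene that is evenly higher in DOX can rank high there, even at a small change, such as 0.41 on the log2 scale for Capn2.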

How the data were processed

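Poly(A) RNA of mouse hearts was sequenced, and the authors deposited 1 table per time of expected counts, which are estimates and can be fractional. RSEM, GRCm38 (mm10) and DESeq2 are named, per the submitters' processing notes. The sources used here give no version, annotation, strand setting or gene filter. Groups came from the labels. At 72 h, 6 columns carry names that match no label and were not used, and 1 DOX library entered as a replicate without a number, so a fit planned on all mapped libraries used 6.

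After rounding to whole numbers, counts were scaled by TMM and filtered with filterByExpr (10393 genes tested at 16 h, 7703 at 72 h, 7407 in the fit of both times). Tests were edgeR 4.0.16 robust quasi-likelihood tests (R 4.3.3) on group means, fitted to 12 libraries at 16 h, 6 at 72 h and the 12 DOX and V libraries for the difference of the times (residual df of 8, 4 and 8), adjusted by Benjamini-Hochberg over all genes at 0.05. SE is the absolute log2 change over the square root of F, and log2 CPM used a prior count of 2. No libraries agreed within sampling noise. The tests were checked on simulated data with the same spread in every gene and no outlying library. That check does not cover a spread as wide as that of the set within H. Alternatives were RLE factors, no filter, DESeq2 1.42.0, a replicate block, only the groups compared, and each library of the groups compared left out. The replicate block run left out the DOX library of 72 h without a label number. limma 3.58.1 came with edgeR. Counting intervals cover counting error only.

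The genes and lists were chosen with earlier results of these data known. The text names every measured gene of the set. It names up to 4 called genes per list with the smallest p, or the first 2 where none is called. Cxcr4 and all 4 C/EBP and PU.1 factors are named after their values were seen. Also named are the 5 genes most like the set's mean with mean log2 CPM no lower than 1. Macrophage, erythroid, cardiomyocyte and endothelial genes are named more briefly than that rule allows. Some genes that the rule names are not reported here.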

Additional observations from a re-analysis of the deposited data

Results flagged for a closer look

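The change with doxorubicin differed between the times for 2 of the 4 genes in both tables, by a test of the difference itself, where 16.8% of all genes tested were called higher and 35.6% in either direction. For Retnlg the log2 change at 72 h exceeded that at 16 h by 4.33 ± 1.31 (SE; edgeR adjusted p = 0.0265), and for Lcn2 by 3.42 ± 1.09 (edgeR adjusted p = 0.0360). With a replicate block, a run that also left out the DOX library of 72 h without a label number, 1 of the 4 was called. With each library left out it was 0 to 4. The shares of all genes called in these runs are not given here. The 2 times come from separate tables, so time and table cannot be told apart. In groups of 3 libraries no search for single outlying samples was made.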

How the results depend on the processing

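RLE factors and no filter on low counts changed no count of calls by over 1.5 times. In DOX against V at 16 h, 1 of 7 genes passed. With DESeq2 2 of the 6 genes with an adjusted p passed, and with the DOX and V libraries alone 7. Without H replicate 1 and DOXH replicate 3 (chosen after seeing the data) 7 passed. With each DOX or V library left out, 0 to 1 passed, where 1928 to 2409 of all 10393 genes were called. Here and below, libraries were left out singly only from the groups compared, so no H or DOXH library was in this case. At 72 h 5 of 5 passed under every alternative run. The difference between the times passed in 2 of 4 genes, in 4 with DESeq2 and in 0 to 4 with each library left out. The shares of all genes called in those alternative runs are not given here. DOXH against H gave 0, and 0 to 6 with each library left out. The 6 came without H replicate 1, where 1.85% of all genes passed.

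Replicate numbers in the labels were not shown to pair the samples: deviations of libraries with the same number correlated at -0.415 to 0.250 at 16 h, over 18 pairs, and at 0.197 and 0.245 at 72 h. With a replicate block, the difference between the times passed in 1 gene, Lcn2, DOX against V in 1 at 16 h and 5 at 72 h, and H against V turned sign for Il1r2 (-0.067), Retnlg (-0.26), S100a8 (-0.042) and S100a9 (-0.16). The cause was not tested.

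With each library left out, H against V ranged from -1.45 to 0.16 for Csf3r, -2.73 to 0.33 for Cxcr2, -2.96 to 1.04 for Il1r2, -0.15 to 0.92 for Lcn2, -3.13 to 1.22 for Retnlg, -2.21 to 1.17 for S100a8 and -2.47 to 1.16 for S100a9. The interaction ranged from -0.39 to 1.22 for Csf3r, -0.91 to 2.16 for Cxcr2, -1.60 to 2.39 for Il1r2, -2.06 to 2.29 for Retnlg, -2.14 to 1.24 for S100a8 and -2.09 to 1.54 for S100a9. Leaving out H replicate 1 gave the lowest H against V value for all 7 genes and the highest interaction for these 6. Over all comparisons and alternatives, 533 values of single genes with an adjusted p kept direction and call, 25 changed sign, 24 gained a call and 17 lost one. DESeq2 gave 19 values no adjusted p, among them all 7 of the interaction, 5 of 7 in H against V and 4 of 7 in DOXH against DOX. Genes near 0 counts, such as Chil3 in V at 72 h and Il1r2 in low H libraries, are limited by depth.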
